A study of Homo sapiens with 6 samples.

Results

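The serpins are a family of serine protease inhibitors and relatives with the same fold, and many of them control the plasminogen activator system. The 37 genes described here were taken by symbol. They are 34 genes whose symbol is SERPIN followed by a clade letter from A to I and a number, together with PLAU, PLAT and PLAUR, out of 56478 genes in the deposited count table. RNA was sequenced from the cell line BT20, an established line from a human breast cancer of the triple negative type. One arm held 3 libraries of cells with a control short hairpin RNA (vector pLK0-shControl, called shControl here), and the other held 3 libraries of cells with a hairpin against cytokeratin 5, the product of KRT5 (in the same pLK0 vector, called shCK5-22). Each arm rests on 1 hairpin, all cells were grown in DMEM/F12 medium with fetal bovine serum, and no further treatment was given. Nothing in the labels shows that replicates came from separate cultures. The p-values therefore set the group difference against the spread of these libraries alone, which may be technical.

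Plasminogen activation turns the circulating zymogen plasminogen into plasmin, a broad protease that dissolves fibrin and cuts matrix proteins. The tissue-type activator (PLAT) and urokinase (PLAU) make that cut, PLAUR holds urokinase at the cell surface, and inhibitory serpins such as SERPINE2 block such proteases by forming a covalent complex in which the serpin is used up. In mammary epithelium and breast cancer this system is studied in cell migration and matrix turnover, and intracellular serpins of clade B are studied as guards against proteases that leak inside the cell or enter from immune cells.

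KRT5, the targeted gene, was lower in all 3 shCK5-22 libraries, with a mean of 241 CPM (counts scaled to the library's total) in shControl and 22.6 CPM in shCK5-22 (log2 fold change -3.41, adjusted p = 1.23e-20, edgeR). Libraries held between 47622067 and 65429616 counts. The epithelial genes KRT8, KRT18, EPCAM and CDH1 were present in all libraries. CDH1 was lower in shCK5-22, with means of 553 CPM in shControl and 429 CPM in shCK5-22 (adjusted p = 1.48e-09, edgeR), and the others did not pass. PGR averaged 0.059 CPM in shControl and 0.035 CPM in shCK5-22, while ESR1 averaged 14.5 and 11.5 CPM and ERBB2 120 and 83.8 CPM. One library stood apart. The chi-square statistic per degree of freedom between shCK5-22 replicate 1 and the other shCK5-22 libraries was 33.7 and 19.8, against 5.08 between those other libraries and between 3.47 and 4.88 among the shControl libraries. Results for the members with and without that library are given below.

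Not every member could be measured. In this table, genes that lie wholly within the spans of other genes were mostly at 0. Of 1618 protein-coding genes with no base outside another annotated gene, 1518 (93.8%) had a count of 0 in all 6 libraries, against 1206 of 14330 genes (8.42%) with at least 75% of their span outside other genes. The same held where the covering gene lay on the opposite strand only, with 795 of 834 genes (95.3%) at 0. RPL17, a ribosomal protein gene that every cell uses, and HSPE1, a mitochondrial chaperonin gene, lie almost wholly or wholly within other genes and were at 0 in all 6 libraries. A low value of such a gene is therefore not read here as low expression.

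**Figure D1:**
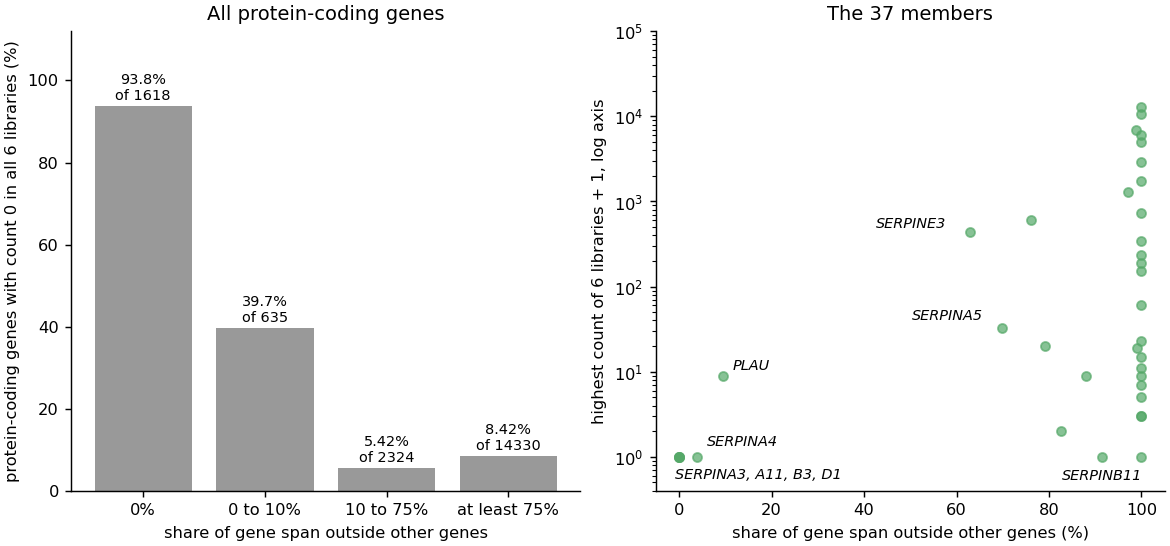
Left, the share of protein-coding genes with a count of 0 in all 6 libraries (vertical axis, percent) by the share of the gene's span outside other annotated genes. It is 93.8% where no base lies outside, 39.7% where above 0 and up to 10% does, and 8.42% where at least 75% does. Right, each of the 37 members as a point, with the highest count of the 6 libraries plus 1 (log axis) against the share of its span outside other genes; PLAU, SERPINA4, SERPINA3, SERPINA11, SERPINB3 and SERPIND1 lie at the left with counts of at most 8.

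This concerns 6 members directly. PLAU, the urokinase gene (chromosome 10, 73909177 to 73917497, plus strand, GRCh38), has 9.52% of its span outside C10orf55, a gene on the minus strand, and its counts were between 0 and 8. SERPINA3, SERPINA11, SERPINB3 and SERPIND1 have no base outside other genes, SERPINA4 has 3.98%, and all of these were at 0 in every library. PLAU and SERPINA4 are among 635 protein-coding genes with above 0 and up to 10% of their span outside other genes. Of these, 252 (39.7%) were at 0 in all 6 libraries. The median of their mean counts was 0.667, against 692 for genes with at least 75% outside. Urokinase, the activator that PLAUR binds, was therefore treated as not measurable in these counts. SERPINE3 (62.9% outside) and SERPINA5 (69.9%) are partly covered, while each of the other members described with values below has at least 75% of its span outside other genes.

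Of the 37 members, 18 passed the filter on low counts and were tested, and 8 of the 18 differed between the groups at an adjusted p under 0.05. These were 4 members higher in shCK5-22 and 4 lower. The count stands beside a background of 34.2% of the 18008 genes tested that passed the same threshold (17.4% higher and 16.8% lower), and no test was made of the list itself. The groups did not overlap for 9 members, against 45.1% of all genes tested. The tested members had a median log2 fold change of -0.05, and the median over all genes was -0.01. The median absolute log2 fold change was 0.21 over the members and 0.18 over all genes. Changes past the threshold reached 1.5-fold for 3 members (8.01% of all genes) and 2-fold for 2 (3.56% of all genes). Without shCK5-22 replicate 1, 4 members were higher and 3 lower, with PLAUR no longer past the threshold (adjusted p = 0.113), while the other 7 calls were kept. In these bulk libraries, fewer cells that express a gene and less RNA per cell cannot be told apart.

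The 8 members that passed were SERPINB9, SERPINE2, SERPINB8 and SERPINB1, which were higher in shCK5-22, and SERPING1, SERPINA1, SERPINB5 and PLAUR, which were lower. The counts by role stand beside 17.4% higher and 16.8% lower among all genes tested, and the groups are too small to set against these shares. By role, the inhibitors of plasminogen activators or plasmin had 1 higher and none lower of 5 tested. The intracellular clade B had 3 higher and 1 lower of 7 tested, out of 13 members. The secreted plasma serpins, taken here as all of clade A with SERPINC1, SERPIND1 and SERPING1, had 2 lower of 3 tested, out of 14 members. The activators and their receptor had 1 lower of 2 tested, out of 3 members. The non-inhibitory serpins had 1 lower of 3 tested, out of 5 members. SERPINB2, SERPINB5, SERPINA5, SERPINA6 and SERPINA7 each belong to more than 1 of these groups.

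**Figure D2:**
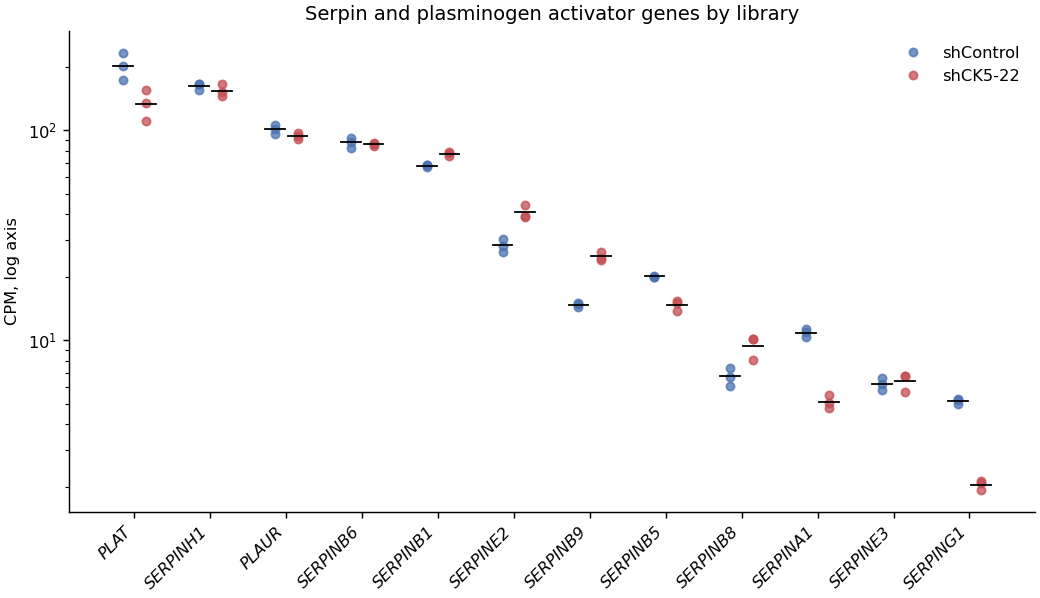
Level of the 12 members that passed the threshold or averaged at least 5 CPM, in CPM on a log axis. Each point is 1 library and each bar the mean of the 3 libraries of a group; PLAT lies highest in shControl with the widest spread, and SERPINB9, SERPINE2, SERPINB5, SERPINA1 and SERPING1 show separate groups.

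The activators and their receptor come first. PLAT, the tissue-type plasminogen activator, had a level of 233, 173 and 203 CPM in the shControl libraries, given here and below in the order of their replicate numbers, and of 156, 111 and 135 CPM in the shCK5-22 libraries. All shCK5-22 libraries were below all shControl libraries, but libraries within a group were far apart, with a coefficient of variation of 14.9% in shControl and 16.9% in shCK5-22. The mean was 203 ± 30.1 CPM in shControl and 134 ± 22.7 CPM in shCK5-22 (SD, n = 3 each), a log2 fold change of -0.60 (SE 0.185, 95% interval -1.10 to -0.09), which did not pass the threshold (adjusted p = 0.079, edgeR). DESeq2 gave an adjusted p of 0.00599 for the same difference. PLAT is also made by endothelial cells. The summed level of 5 endothelial markers was between 23.9 and 31.7 CPM in shControl and between 19.5 and 31.8 CPM in shCK5-22, mostly from CDH5. In both groups the sum was highest in replicate 1 and lowest in replicate 2, as PLAT was. CDH5 and PECAM1, scaled to library size, had this order in both groups, but not every marker shared it. Within shControl, TEK was lowest in replicate 1 (15, 34 and 38 counts), and VWF and KDR were lowest in replicate 3 (24 and 8 counts). Of the 5 markers 1 was lower in shCK5-22 and 4 did not pass. The lower marker was PECAM1, with means of 5.02 CPM in shControl and 2.15 CPM in shCK5-22 (adjusted p = 0.0429, edgeR). None of the 5 markers was at 0 in all libraries, and their part in the PLAT values was not tested.

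PLAUR, the urokinase receptor (chromosome 19, 43646095 to 43670547, minus strand), is a membrane protein held by a lipid anchor. It was 95.6, 106 and 101 CPM in the shControl libraries and 91.4, 96.7 and 94.5 CPM in the shCK5-22 libraries. The groups overlapped, and the lowest shControl library was below the highest shCK5-22 library. The mean was 101.0 ± 5.29 CPM against 94.2 ± 2.69 CPM, a log2 fold change of -0.10 (SE 0.0389) at an adjusted p of 0.048. The call was lost in 7 of the 15 alternatives tried for this gene, among them DESeq2 (adjusted p = 0.085) and the fit without shControl replicate 2 (adjusted p = 0.275).

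Among the inhibitors, SERPINE2 (chromosome 2, 223975112 to 224039319, minus strand), or protease nexin-1, inhibits thrombin, urokinase and plasmin. It was 30.5, 26.4 and 28.1 CPM in shControl and 44.1, 39.2 and 38.6 CPM in shCK5-22. Every shCK5-22 library was above every shControl library. The mean rose from 28.3 ± 2.06 to 40.6 ± 3.06 CPM, a 1.44-fold higher level (log2 fold change 0.53, SE 0.0608, 95% interval 0.40 to 0.65, adjusted p = 1.15e-06). Without shCK5-22 replicate 1, the highest library, the log2 fold change was 0.46 (adjusted p = 1.73e-07).

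The other inhibitors of this system had lower levels and did not pass the threshold. SERPINF2, the circulating inhibitor of plasmin, was 2.75, 2.48 and 2.66 CPM in shControl and 2.88, 3.15 and 2.88 CPM in shCK5-22, with groups that did not overlap and a log2 fold change of 0.18 that did not pass (adjusted p = 0.37). SERPINI1, neuroserpin, an inhibitor of the tissue-type activator in the nervous system, averaged 0.709 and 0.606 CPM from 22 to 60 counts per library (adjusted p = 0.684). SERPINA5, the protein C inhibitor, averaged 0.436 and 0.347 CPM from 14 to 32 counts (adjusted p = 0.553). SERPINB2, plasminogen activator inhibitor type 2, averaged 0.149 and 0.177 CPM from 2 to 19 counts (adjusted p = 0.848). At these depths the 95% intervals were wide. The interval of the log2 fold change of SERPINB2 reached from -1.12 to 1.53, so neither a fall nor a rise of 2-fold is outside it.

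**Figure D3:**
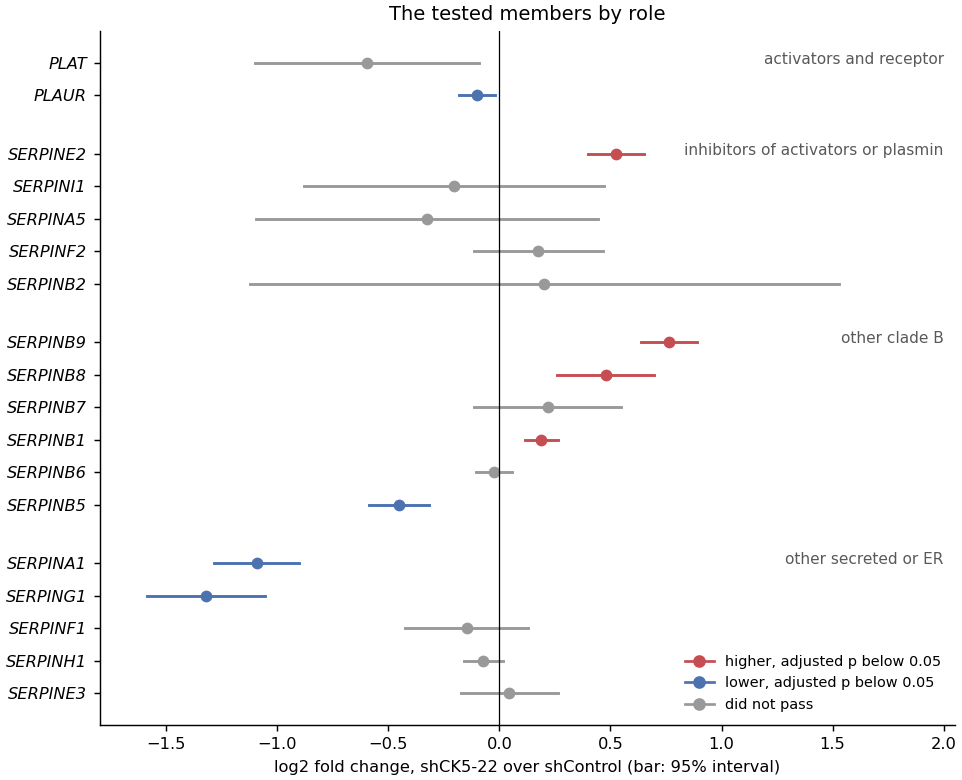
Log2 fold change of shCK5-22 over shControl (horizontal axis) for the 18 tested members, ordered by role, with 95% intervals from edgeR as bars. SERPING1 and SERPINA1 lie lowest, SERPINB9 lies highest, and SERPINB2, SERPINA5 and SERPINI1 have the widest intervals.

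Levels can be compared within a library without any scaling between libraries. For every 100 PLAT counts there were 13.1, 15.3 and 13.9 SERPINE2 counts in shControl and 28.3, 35.4 and 28.5 in shCK5-22. Since SERPINE2 was higher and PLAT lower in every shCK5-22 library than in any shControl library, this ratio had to separate the groups. It is no further evidence for either change. On the log2 scale, the ratio of PLAT to SERPINE2 was 2.94, 2.71 and 2.85 in shControl and 1.82, 1.5 and 1.81 in shCK5-22. SERPINE2 counts per 100 PLAUR counts were 31.9, 24.8 and 27.7 in shControl and 48.3, 40.5 and 40.8 in shCK5-22, again without overlap. The ranges of the SERPINE2 and PLAUR levels fixed this separation too, so it is no further evidence. The summed level of the 37 members was 739.6, 705.5 and 726.8 CPM in shControl and 673.8, 646.8 and 658.1 CPM in shCK5-22. PLAT made up 31.5%, 24.5% and 27.9% of that sum in shControl and 23.2%, 17.1% and 20.6% in shCK5-22, and its share was lower in every shCK5-22 library than in any shControl library.

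**Figure D4:**
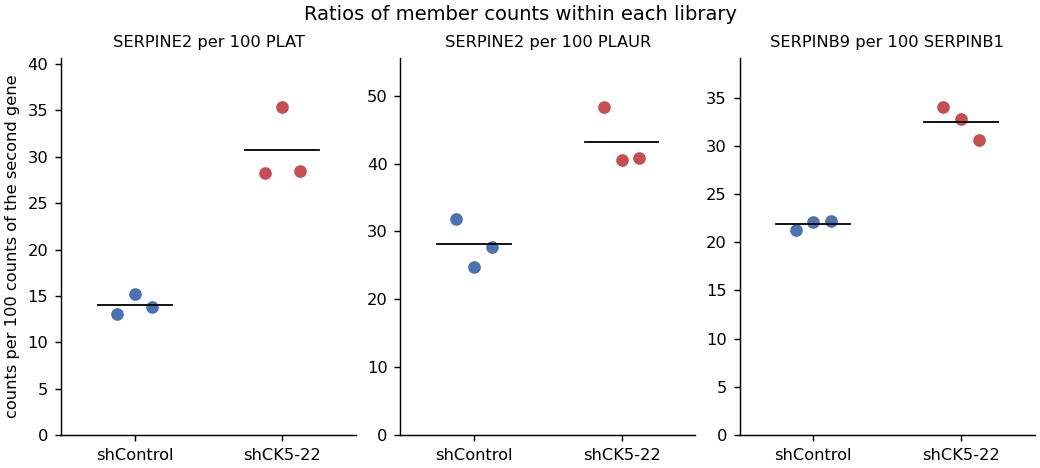
Ratios of member counts within each library, as counts of the first gene per 100 counts of the second, with 1 point per library and a bar for the group mean; each panel starts at 0. The 3 ratios, SERPINE2 per PLAT, SERPINE2 per PLAUR and SERPINB9 per SERPINB1, are higher in every shCK5-22 library than in any shControl library. These separations follow from the levels of the genes themselves and are no further evidence of a change.

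Clade B serpins mostly stay inside the cell, and all 13 clade B members lie in 2 genomic clusters. On chromosome 6 a cluster of 3 members, SERPINB1, SERPINB9 and SERPINB6, was tested in full, with 2 members higher in shCK5-22. On chromosome 18 a cluster of 10 members had 4 tested, with SERPINB8 higher and SERPINB5 lower. The RefSeq promoter windows (GRCh38.p14, 250 bases before to 50 after the annotated start, given 5' to 3' on the gene's strand) of the called members of both clusters are shown because neighbours within a cluster differed in size or direction of change. SERPINB9 is at chr6:2903260-2903559 and SERPINB1 at chr6:2841814-2842113, both minus strand, and SERPINB8 is at chr18:63969831-63970130 and SERPINB5 at chr18:63476708-63477007, both plus strand. Capitals mark matches on either strand to the AP-1 motif TGANTCA, the TATA box TATAAA and the GC box GGGCGG.
SERPINB9: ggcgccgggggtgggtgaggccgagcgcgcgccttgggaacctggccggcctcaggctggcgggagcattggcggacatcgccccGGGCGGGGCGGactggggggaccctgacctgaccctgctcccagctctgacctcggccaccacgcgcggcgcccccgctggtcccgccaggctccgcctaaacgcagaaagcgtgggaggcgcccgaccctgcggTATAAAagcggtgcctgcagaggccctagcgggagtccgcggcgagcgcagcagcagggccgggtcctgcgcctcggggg
SERPINB1: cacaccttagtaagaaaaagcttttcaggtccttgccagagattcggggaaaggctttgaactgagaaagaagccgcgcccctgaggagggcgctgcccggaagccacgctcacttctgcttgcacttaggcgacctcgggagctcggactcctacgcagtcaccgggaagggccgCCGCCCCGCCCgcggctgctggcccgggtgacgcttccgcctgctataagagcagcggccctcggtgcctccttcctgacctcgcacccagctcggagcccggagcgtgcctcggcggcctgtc
SERPINB8: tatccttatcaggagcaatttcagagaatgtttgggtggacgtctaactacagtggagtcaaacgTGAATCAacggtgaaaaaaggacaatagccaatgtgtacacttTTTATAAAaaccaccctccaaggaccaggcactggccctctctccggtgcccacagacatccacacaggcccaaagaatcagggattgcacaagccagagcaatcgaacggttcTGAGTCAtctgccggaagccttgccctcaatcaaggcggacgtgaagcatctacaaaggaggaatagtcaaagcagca
SERPINB5: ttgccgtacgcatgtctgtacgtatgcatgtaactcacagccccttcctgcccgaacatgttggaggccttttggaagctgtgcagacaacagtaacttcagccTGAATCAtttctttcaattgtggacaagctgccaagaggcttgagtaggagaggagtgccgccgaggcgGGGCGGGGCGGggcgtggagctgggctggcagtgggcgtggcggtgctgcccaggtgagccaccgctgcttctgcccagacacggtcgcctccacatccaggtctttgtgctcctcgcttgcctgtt

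The 4 windows differ in these letters. SERPINB9 has a TATA box 30 bases before the start and a pair of overlapping GC boxes 165 and 160 bases before it, and 75.7% of its window is G or C. SERPINB1 has a pair of overlapping GC boxes 74 and 69 bases before the start and no match to the TATA box letters in this window. SERPINB8 has AP-1 motifs 185 and 28 bases before the start and overlapping TATA box letters 142 and 140 bases before it, on opposite strands. SERPINB5 has an AP-1 motif 146 bases before the start and overlapping GC boxes 77 and 72 bases before it. The AP-1 motif thus stands in the windows of a member that was higher and a member that was lower.

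Over all tested members with a window, which were 14 genes with 23 windows, 7 windows of 6 genes (30.4%) held the AP-1 motif, against 7.71% of all 35116 windows. The genes were SERPINB2, SERPINB5, SERPINB7, SERPINB8, SERPINE3 and PLAUR, and 3 of them passed the threshold. SERPINB2, SERPINB5, SERPINB7 and SERPINB8 lie in the chromosome 18 cluster, and SERPINB7 holds the motif in more than 1 window. These windows are therefore not independent of one another. PLAUR has its AP-1 motif 186 bases before the start (chr19:43670120-43670419, minus strand). The TATA box was in 5 windows (21.7%, against 11.5% of all windows) and the GC box in 11 (47.8%, against 45% of all). The NF-kB motif, searched by its consensus, was in 2 (8.7%, against 5.91% of all). The interferon response motif, searched by its consensus (3.57% of all) and the SMAD box GTCTAGAC (0.202% of all) matched none of the 23. Windows of 1 gene can overlap, and a match is a description of letters only. Windows were found for 29 of the 37 members. The other members are SERPINA2, SERPINB10, SERPINB11, SERPINC1, SERPINF1, SERPINF2, SERPING1 and PLAT.

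SERPINB9 (chromosome 6, 2887266 to 2903280, minus strand) is the intracellular inhibitor of granzyme B, the protease that cytotoxic lymphocytes deliver into target cells. Its level was 14.44, 15.03 and 14.95 CPM in shControl and 26.4, 24.7 and 24.2 CPM in shCK5-22. No library came near the other group. The mean rose from 14.8 ± 0.319 to 25.1 ± 1.13 CPM, a 1.70-fold higher level (log2 fold change 0.76, SE 0.0605, 95% interval 0.64 to 0.89, adjusted p = 2.51e-09), and this was the largest rise among the tested members. Lymphocytes also make SERPINB9. The summed level of 7 leukocyte markers was between 6.49 and 6.91 CPM in shControl and between 6.87 and 8.83 CPM in shCK5-22, mostly from CSF1R, with 1 of 4 tested markers higher (ITGAM, 0.93 to 2.23 CPM). The pan-leukocyte gene PTPRC averaged 0.404 and 0.238 CPM and the T cell gene CD3E 0.0102 and 0 CPM, all under the level of 1 CPM, and the part of the leukocyte markers in the SERPINB9 result was not tested.

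SERPINB1 (chromosome 6, 2832332 to 2842006, minus strand), an inhibitor of neutrophil elastase and related proteases, had the smallest rise that passed. It was 68.0, 68.1 and 67.2 CPM in shControl and 77.6, 75.3 and 79.0 CPM in shCK5-22. The shCK5-22 libraries were all higher, by more than the spread within either group. The mean rose from 67.8 ± 0.473 to 77.3 ± 1.89 CPM, which is 1.14-fold (log2 fold change 0.19, SE 0.0365, adjusted p = 0.00032).

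SERPINB6 (chromosome 6, 2948159 to 2972165, minus strand), an inhibitor of cathepsin G, is the third member of that cluster. Its level was 82.7, 91.9 and 88.0 CPM in shControl and 84.6, 87.3 and 86.2 CPM in shCK5-22. The shCK5-22 values lay within the shControl range, and the log2 fold change was -0.03 (95% interval -0.11 to 0.06, adjusted p = 0.669). Within the libraries, SERPINB9 counts per 100 SERPINB1 counts were 21.2, 22.1 and 22.2 in shControl and 34.0, 32.8 and 30.7 in shCK5-22. The ranges of the SERPINB9 and SERPINB1 levels fixed this separation, so it is no further evidence for either change. The neighbours SERPINB9, SERPINB1 and SERPINB6 thus had log2 fold changes of 0.76, 0.19 and -0.03.

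SERPINB8 (chromosome 18, 63969925 to 64019779, plus strand) inhibits furin, the protease that matures many secreted proteins. It was 6.08, 7.41 and 6.71 CPM in shControl and 8.02, 10.1 and 10.2 CPM in shCK5-22. The shCK5-22 libraries were all higher, with replicate 1 closest to shControl. The mean rose from 6.73 ± 0.665 to 9.44 ± 1.23 CPM, a 1.39-fold higher level (log2 fold change 0.48, SE 0.105, adjusted p = 0.0011). Without shCK5-22 replicate 1 the log2 fold change was 0.59 (adjusted p = 2.72e-05). SERPINB8 has 76.2% of its span outside other genes, the rest being shared with HMSD and a gene on the minus strand.

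SERPINB5 (chromosome 18, 63476761 to 63505085, plus strand), maspin, is a serpin of mammary epithelium, prominent in its myoepithelial layer, that does not act as a protease inhibitor in the usual way. It was 20.3, 20.1 and 20.1 CPM in shControl and 15.03, 13.8 and 15.4 CPM in shCK5-22. Every shCK5-22 library was below every shControl library. The mean fell from 20.15 ± 0.137 to 14.7 ± 0.857 CPM, 1.37-fold lower, with a log2 fold change of -0.45 (SE 0.064) and an adjusted p of 9.80e-06. All 4 basal epithelial markers (KRT5, the knockdown target, among them) were lower in shCK5-22, beside 16.8% of all genes tested. None of these markers was at 0. Their summed level was between 1953 and 1999 CPM in shControl and between 1455 and 1529 CPM in shCK5-22. Most of this sum came from EGFR, with means of 1477 and 1303 CPM, while KRT5 itself fell from 241 to 22.6 CPM. KRT14 fell from 21.6 to 9.7 CPM and KRT17 from 235 to 153 CPM. The part of these markers in the SERPINB5 result was not tested.

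Of the other clade B members, SERPINB7 was 2.21, 1.81 and 2.00 CPM in shControl and 2.33, 2.48 and 2.16 CPM in shCK5-22, which overlap (log2 fold change 0.22, adjusted p = 0.324). SERPINB12, SERPINB11 and SERPINB3 were at 0 in every library, and the highest count in any library was 8 for SERPINB4, 2 for SERPINB13 and 1 for SERPINB10. SERPINB3 and SERPINB4, the squamous cell carcinoma antigens, are near-identical copies, with 24.3% of the 50-base windows of SERPINB4 found again at other loci, so their counts are uncertain in any case. Among the tested members, at most 4.33% of windows were shared with another locus (SERPINB9).

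Of the 3 secreted plasma serpins tested, SERPING1 and SERPINA1 gave the largest falls among the tested members, and SERPINA5 did not pass. SERPINF2, described above as circulating, was not counted in this class. SERPINA1 (chromosome 14, 94376747 to 94390693, minus strand), alpha-1 antitrypsin, is the main circulating inhibitor of neutrophil elastase. It was 10.4, 11.3 and 10.9 CPM in shControl and 5.49, 4.75 and 5.03 CPM in shCK5-22, from between 266 and 736 counts per library. The highest shCK5-22 library was well below the lowest shControl library. The mean fell from 10.9 ± 0.442 to 5.09 ± 0.372 CPM, 2.13-fold lower, with a log2 fold change of -1.09 (SE 0.091) and an adjusted p of 5.13e-09. The liver is the main source of this protein in the body, and of 7 hepatocyte markers none passed the filter, with a summed level between 0 and 0.0634 CPM in shControl and between 0.0335 and 0.0757 CPM in shCK5-22.

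SERPING1 (chromosome 11, 57597387 to 57614853, plus strand), the C1 inhibitor, blocks the first proteases of the complement cascade as well as plasma kallikrein and coagulation factor XII. Its level was 4.95, 5.27 and 5.20 CPM in shControl and 2.15, 1.94 and 2.08 CPM in shCK5-22, from between 110 and 344 counts. The groups were far apart relative to their spread. The mean fell from 5.14 ± 0.169 to 2.06 ± 0.105 CPM, 2.50-fold lower, with a log2 fold change of -1.32 (SE 0.127) and an adjusted p of 4.81e-08, the largest change of any tested member. SERPING1 is also made by fibroblasts. The summed level of 6 fibroblast markers was between 31.8 and 32.8 CPM in shControl and between 28.3 and 29.4 CPM in shCK5-22. Most of this sum came from COL1A1, the 1 marker that was lower of 4 tested. The 2 markers that were higher were LUM, from 0.101 to 0.374 CPM, and PDGFRB, from 0.0518 to 1.08 CPM. None of the 6 was at 0 in all libraries, and their part in the SERPING1 result was not tested.

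The rest of this class was mostly silent or unmeasured. The chromosome 14 cluster of 10 clade A members had 2 tested, SERPINA1 and SERPINA5, and 3 (SERPINA11, SERPINA4 and SERPINA3) at 0 in every library. The highest count in any library was 22 for SERPINA12, 10 for SERPINA6, 8 for SERPINA9, 6 for SERPINA10, 4 for SERPINA2, 2 for SERPINA7 and 14 for SERPINC1. SERPIND1 was at 0. With no filter on low counts, SERPINA12 was called lower (log2 fold change -2.19, adjusted p = 0.0349), as was SERPINI2, a clade I member with at most 18 counts (log2 fold change -3.73, adjusted p = 0.0108). SERPINA12 had 6, 22 and 10 counts in shControl and 4, 4 and 0 in shCK5-22. SERPINI2 had 18, 8 and 2 counts in shControl and 2, 0 and 0 in shCK5-22. That fit is not on the same footing as the main fit. At like fold changes its adjusted p was 5.95e-30 against 2.51e-09 for SERPINB9, and 0.123 against 0.079 for PLAT. Most counts between 1 and 20 in this table were even numbers (between 86.7% and 89.1% of genes in that range), against between 58.8% and 61.6% of genes above 200 counts. With all counts halved and the filter on low counts kept, 17 members were tested, with 4 higher and 4 lower. SERPINA12 and SERPINI2 were not among those tested, so the halved counts do not bear on their calls.

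The remaining members did not pass the threshold. SERPINH1 (chromosome 11, 75562056 to 75572783, plus strand), a chaperone of collagen in the endoplasmic reticulum, was 156, 165 and 166 CPM in shControl and 146, 166 and 151 CPM in shCK5-22. The groups overlapped through shCK5-22 replicate 2, the highest library of all 6. The log2 fold change was -0.07 (95% interval -0.16 to 0.02, adjusted p = 0.22). Without shCK5-22 replicate 2 it was -0.13 (adjusted p = 0.00793), and without shCK5-22 replicate 1 it was -0.03 (adjusted p = 0.571). SERPINF1, the pigment epithelium-derived factor, was 3.16, 3.47 and 3.66 CPM in shControl and 3.07, 3.36 and 2.88 CPM in shCK5-22, with overlap (log2 fold change -0.15, adjusted p = 0.438). SERPINE3 (chromosome 13, 51335773 to 51364735, plus strand) was 6.64, 5.83 and 6.18 CPM in shControl and 6.75, 5.65 and 6.79 CPM in shCK5-22, a log2 fold change of 0.04 (adjusted p = 0.795). Part of SERPINE3 is covered by INTS6 on the other strand.

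Between genes, levels were compared per kilobase of merged exons. The sources used here do not state which bases of a gene were counted. The zeros of covered genes leave it possible that whole spans with their introns were counted, in which case exon length is not the matching denominator, so these levels are approximate. PLAT had 30.7 CPM per kilobase in shControl and 20.3 in shCK5-22, SERPINH1 25.8 and 24.6, PLAUR 22.7 and 21.1, and SERPINB1 21.9 and 24.98. The order of these genes depended on the length used. With the longest annotated transcript of each gene, the mean levels over all 6 libraries were 60.6 CPM per kilobase for PLAUR, 48.7 for PLAT, 44.97 for SERPINH1 and 27.7 for SERPINB1.

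A further list of 36 genes holds plasminogen, its receptors and partners, and other serine proteases of coagulation and the cell surface with their inhibitors. Of these 22 were tested, and in shCK5-22, 2 rose and 8 fell, beside the background of 17.4% higher and 16.8% lower among all genes tested. Among the receptors and partners 2 of 12 tested were higher and 3 lower. ITGAV, the integrin subunit of vitronectin receptors that associate with PLAUR, rose from 41.4 ± 3.97 to 51.2 ± 3.19 CPM (log2 fold change 0.31, adjusted p = 0.00153), with 56.4% of its span outside other genes. LRP1, the endocytic receptor that clears complexes of activator and inhibitor, rose from 65.0 ± 2.41 to 70.6 ± 3.82 CPM (log2 fold change 0.12, adjusted p = 0.0382) with overlapping groups. S100A10, a partner of annexin A2 that binds plasminogen at the cell surface, fell from 571 ± 15.3 to 459 ± 14.1 CPM (log2 fold change -0.32, adjusted p = 4.38e-08). ANXA2 itself averaged 2667 and 2539 CPM and did not pass (adjusted p = 0.0781), and neither did the plasminogen-binding enolase gene ENO1, at 2395 and 2527 CPM (adjusted p = 0.0847). Plasminogen (PLG) was not tested, with means of 0.0482 and 0.0475 CPM.

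Of the other proteases 3 of 6 tested were lower and none higher, and of the other inhibitors 2 of 4 tested were lower and none higher. Among all genes tested 16.8% were lower. ST14, matriptase, an epithelial membrane protease, fell from 156.4 ± 2.74 to 111.9 ± 3.66 CPM (log2 fold change -0.48, adjusted p = 2.40e-10). SPINT1, the membrane inhibitor of matriptase, fell from 242 ± 3.93 to 199 ± 6.18 CPM (log2 fold change -0.28, adjusted p = 2.41e-07). The protease and its inhibitor thus fell in the same libraries. TMPRSS4, another membrane serine protease, had the largest fall of these lists, from 8.02 ± 0.512 to 1.31 ± 0.126 CPM (log2 fold change -2.61, adjusted p = 1.26e-12). It was chosen after its values were seen, and 74.8% of its span lies outside other genes. The other genes lower in shCK5-22 were ITGB5, VLDLR, F12 and SPINT2, with 43.7% of the span of VLDLR and 14.3% of that of F12 outside other genes.

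**Figure D5:**
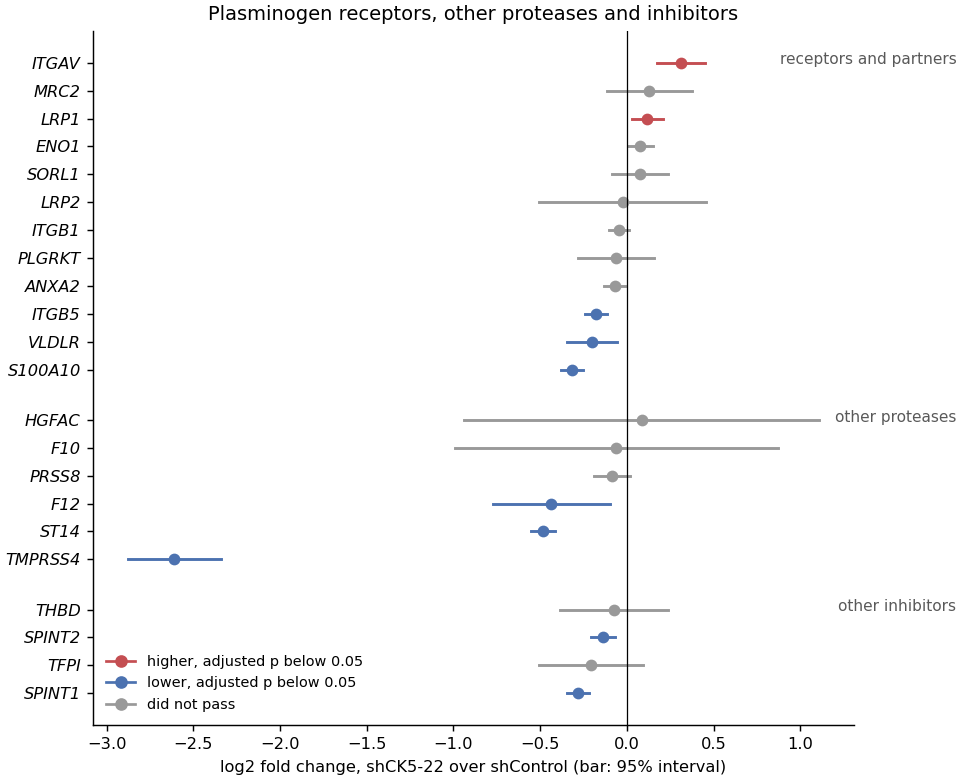
Log2 fold change of shCK5-22 over shControl (horizontal axis) with 95% intervals for the 22 tested genes of the further list, in 3 groups. TMPRSS4 lies lowest at -2.61, and ITGAV and LRP1 are the genes that were higher.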

How the data were processed

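RNA from 6 BT20 libraries (3 shControl, 3 shCK5-22) was sequenced, with groups and replicate numbers from the sample titles. The authors deposited 1 table, which holds a whole-number count for each symbol in each library. Per the submitters' processing notes, tools included cutadapt, STAR, SAMtools and Cufflinks with build GRCh38. Not given in the sources used here were the counting tool, annotation, strand use and treatment of reads with several places. Of 56505 rows, 27 held a date in place of a symbol and between 0.167% and 0.175% of a library's counts, and were left out.

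Members, roles and pathway genes were chosen with earlier results of these data known. Named are members past the threshold or averaging at least 5 CPM, and of the pathway genes the largest changes past the threshold with at least 5 CPM (up to 3 each way). The whole table was fitted with edgeR 4.0.16 (R 4.3.3), with its quasi-likelihood test (robust), TMM and filterByExpr. P-values are two-sided, adjusted by Benjamini-Hochberg over the 18008 genes tested, threshold 0.05. The script was tested on simulated data. CPM uses TMM-scaled library sizes. The common biological coefficient of variation was 5.01%. A floor of 3 counts is 0.0459 to 0.063 CPM, covering counting error only. Alternatives were RLE, upper quartile or no scaling, other filters, an adjusted p of 0.01, DESeq2 1.42.0, limma-voom (limma 3.58.1), a replicate block, leaving out each library, and, chosen after seeing the data, halved counts and only members at least 75% outside other genes. Spans come from GENCODE release 29 on GRCh38 and promoter windows from RefSeq GRCh38.p14. PLAU was treated as not measurable. The ratio of an activator to an inhibitor was therefore taken from PLAT and SERPINE2, chosen after seeing the data. The ratios of SERPINE2 to PLAUR and of SERPINB9 to SERPINB1 were not planned. Of the genes that the symbol rule takes, 1 is not reported here and is left out of the counts of members.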

Additional observations from a re-analysis of the deposited data

How the results depend on the processing

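SERPINB9, SERPINE2, SERPINB1, SERPINB8, SERPINA1, SERPING1 and SERPINB5 kept their direction and their side of the threshold in all 15 alternatives, with highest adjusted p-values between 3.7e-07 (SERPINB9) and 0.0123 (SERPINB8). Under every alternative 4 members were higher. The count of lower members was 3 at an adjusted p of 0.01 and between 3 and 5 when 1 library was left out, 3 with RLE and with upper quartile scaling, and 6 with no filter on low counts, where SERPINA12 and SERPINI2 were added. The smallest fall, PLAUR, is the call that was lost. DESeq2 also gave 4 lower, without PLAUR and with PLAT. The median log2 fold change of the members was between -0.095 and -0.036 when 1 library was left out, -0.069 with DESeq2 and -0.074 with halved counts. For 4 members that did not pass, leaving out 1 library changed the sign of the log2 fold change, which was -0.0026 for SERPINE3 and 0.0097 for SERPINB6 (both without shControl replicate 2), -0.19 and -0.39 for SERPINB2 (without shControl replicate 1 and shCK5-22 replicate 1) and 0.059 for SERPINI1 (without shCK5-22 replicate 2). Their ranges were -0.0026 to 0.13 (SERPINE3), -0.068 to 0.0097 (SERPINB6), -0.39 to 0.75 (SERPINB2) and -0.65 to 0.059 (SERPINI1). The cause was not tested. Over all genes, 6153 were called, and between 4382 (adjusted p of 0.01) and 6743 (replicate block) in the alternatives. The shared replicate numbers were not shown to pair the samples, since the correlations of deviations between same-numbered libraries were 0.06, 0.13 and -0.02. With the replicate block 4 members were higher and 5 lower, PLAT being added (adjusted p = 1.34e-13). Depth limits SERPINB2, SERPINA5 and SERPINI1, covering genes limit 6 of the 19 untested members, and the use of 1 hairpin per arm limits all.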
